A study of Mus musculus with 15 samples.

Results

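Pou5f1, Dppa2, Dppa4, Dppa5a, Klf5, Sall4 and Utf1 are 7 genes of the pluripotent state that had been picked for the signal they still gave in mesoderm made from mouse embryonic stem (ES) cells. They were 7 of 12409 genes tested, and they were chosen by their log2 signal over the same 15 arrays described here. Each gene was read from its probe set with the highest mean, and other probe sets served as a check. Their levels and the differences between groups are therefore a description, and no test is given for them. The name of the group holds unevenly. Sall4 kept 81.1% of its ES signal in RDL medium at day 4, whereas Dppa2 kept 1.74% there, and by day 6 only Sall4 and Utf1 stood above 10% of their ES mean in either medium, on the probe sets used.

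RNA was measured on Affymetrix mouse expression arrays in 5 groups with 3 arrays each. The ES group (line E14, strain 129P2) was unsorted and came at day 0 from medium with LIF at 1500 U/ml and 2i, the GSK3 inhibitor CHIRON99021 with the MEK inhibitor PD0325901. They had been kept on inactivated embryonic fibroblasts and passaged once without feeders before differentiation. Differentiation was serum-free. It began with 2 days of BMP4 at 10 ng/ml and went on in 15% KSR with 0.5% DMSO and the BMP receptor inhibitor LDN193189 at 0.1 µM. RDL medium added the Wnt agonist Rspo3 at 10 ng/ml, and CDL medium added CHIRON99021 (CHIR) at 1 µM. At day 4 the cells were E14 sorted for the reporter Msgn1-repV. At day 6 they were of another line, CK35 (strain 129Sv), sorted for Pax3-GFP, so day, line, strain and sort reporter cannot be told apart between the days. Medium, day and sort likewise entered every comparison with ES cells together, and line and strain entered those at day 6 as well. Each group is a single line, and CHIR was present both in ES medium and in CDL.

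Pou5f1 (Oct4) is the POU-domain factor without which the pluripotent state is lost, and it acts on many enhancers together with Sox2. Utf1 and Fgf4 are among its textbook targets. Klf5 is a Krüppel-like zinc finger factor of ES cells and of several epithelia, and Sall4 a spalt zinc finger factor that recruits the NuRD complex and is also made in the posterior embryo. Dppa2 and Dppa4 are paired SAP-domain chromatin proteins, and Dppa5a is a small protein with an RNA-binding KH domain. In the embryo Pou5f1 stays on in the epiblast through gastrulation, after naive factors such as Nanog's partners Esrrb and Tfcp2l1 have been lost, and later only in germ cells.

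The promoters of the factor and of its target Utf1 are shown because one is a known target of the other and yet they kept different shares of their ES signal. Of the 7 genes, 2 had an entry in the RefSeq promoter table (build GRCm38.p6). Both windows cover the 250 bases before the start of the gene on the plus strand, chr17:35505782-35506031 for Pou5f1 and chr7:139943606-139943855 for Utf1. Capitals mark matches to the GC box GGGCGG, which Sp and Klf factors can bind, and to AGGTCA, a motif bound by nuclear receptors. The octamer ATGCAAAT and the TATA box TATAAA were searched as well, all on both strands.

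Pou5f1: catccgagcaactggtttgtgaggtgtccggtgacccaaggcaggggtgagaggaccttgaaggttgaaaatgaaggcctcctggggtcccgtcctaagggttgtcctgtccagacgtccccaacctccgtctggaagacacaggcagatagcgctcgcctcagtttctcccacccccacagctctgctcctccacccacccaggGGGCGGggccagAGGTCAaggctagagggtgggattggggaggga
Utf1: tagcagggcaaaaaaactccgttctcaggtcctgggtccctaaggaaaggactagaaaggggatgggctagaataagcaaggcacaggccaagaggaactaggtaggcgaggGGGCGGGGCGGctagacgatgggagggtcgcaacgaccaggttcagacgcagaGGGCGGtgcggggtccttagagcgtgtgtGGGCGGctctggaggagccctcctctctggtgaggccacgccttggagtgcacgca

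Pou5f1 had 1 GC box, beginning 45 bases before the start, and 1 AGGTCA beginning 33 bases before it. Utf1 had 4 GC boxes, of which 2 overlap. Of 32851 promoter windows in the table, 32.7% held GGGCGG, 14% held AGGTCA, 1.6% the octamer and 12.4% TATAAA. Neither window held the octamer or TATAAA. Sites outside these 250 bases were not searched, so this says nothing on the target relation or on the shares kept. CpG pairs numbered 8 in Pou5f1 and 14 in Utf1, against a median of 6 over all windows.

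The state of the samples bears on every value of these genes. Array medians lay between 29.4 and 31.2 signal units. ES cells gave a summed signal over 8 ES markers (Nanog, Zfp42, Esrrb, Tfcp2l1, Klf4, Klf2, Prdm14 and Nr0b1) between 20208 and 20296. At day 4 the RDL arrays summed to 484 to 673 and the CDL arrays to 510 to 5279. At day 6 the RDL arrays had 257 to 345 and the CDL arrays 717 to 959. The highest of these sums was that of CDL day 4 replicate 1, and the other 2 arrays of its group had 510 and 608. The day 6 sums differed through Klf4, at 434 to 544 in CDL and 91.4 to 161 in RDL, and Klf2, at 199 to 267 and 60.4 to 86.6, while Nanog overlapped. The means of 5 of the 8 markers lay below 50 units in RDL at day 4. Over 5 presomitic markers (Msgn1, Tbx6, Hes7, Dll1 and Dll3) ES cells summed to 162 to 177 and the day 4 cells to 4631 to 6144, and the day 6 cells to 176 to 792. Over 5 somite markers (Meox1, Tcf15, Foxc2, Pax3 and Aldh1a2) ES cells summed to 269 to 315, RDL day 4 to 3754 to 3872 and CDL day 4 to 1696 to 2334. At day 6 RDL had 2880 to 4266 and CDL 4910 to 7280. The RDL day 4 sums lay within the RDL range at day 6, but the single markers moved in opposite ways. From day 4 to day 6 in RDL, mean Aldh1a2 went from 1974 to 284, Meox1 from 581 to 1827 and Pax3 from 108 to 303. Tcf15 went from 395 to 378 and Foxc2 from 760 to 826. Of 7 feeder fibroblast markers, all 7 had means below 50 units in ES cells, with sums of 179 to 200. Those sums were 690 to 784 in RDL and 816 to 1034 in CDL at day 4, and 7738 to 10086 and 5192 to 7064 at day 6. The sums were thus highest at day 6, where most members were lower than at day 4. Within day 4 the sums were higher in CDL, where most members were higher too. This came through Col1a2 alone, with a mean of 567 in CDL and 302 in RDL. The other feeder markers had lower means in CDL than in RDL at day 4, such as Col3a1 with 191 against 263. Col3a1 alone had a mean of 6794 in RDL at day 6, whereas Thy1 went from 74.2 in RDL at day 4 to 16.6 at day 6. The part of such cells in the members' values was not tested. In bulk samples, fewer cells that express a gene and less RNA in each cell cannot be told apart.

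Pou5f1 stood at a middle level at day 4 and around the array medians at day 6. Its signal was 2702, 2753 and 3270 in the 3 ES arrays, and 176, 215 and 213 in RDL at day 4. In CDL at day 4 it was 1277, 486 and 424, and the first of these is the array with high ES markers. At day 6 it was 28.1, 23.1 and 28.6 in RDL and 23.9, 49.7 and 23.9 in CDL. The ES arrays lay above all others, CDL at day 4 above RDL at day 4, and those above both day 6 groups, which overlapped each other. As means, Pou5f1 kept 6.94% of its ES signal in RDL and 25.1% in CDL at day 4, or 15.6% in CDL without replicate 1. At day 6 it kept 0.915% and 1.12%. On the log2(signal + 12.6) scale, used for all differences here and given with the standard error (SE) of the fit over 15 arrays, RDL at day 4 stood at -3.77 ± 0.30 against ES cells (n = 3 per group). The SE of each gene is shared by all comparisons, so the spread of CDL day 4 widens it everywhere.

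Sall4 hardly left its ES level at day 4. ES arrays read 2118, 2083 and 2352, RDL day 4 arrays 1958, 1805 and 1552, and CDL day 4 arrays 2353, 2241 and 2077. The CDL arrays overlapped the ES arrays, and the RDL arrays lay just below them. At day 6 the signal was 442, 864 and 906 in RDL and 631, 916 and 523 in CDL, which is 33.7% and 31.6% of the ES mean. A difference of -0.30 ± 0.22 (SE) was fitted for RDL against ES cells at day 4 and of 0.03 ± 0.22 for CDL, followed by -1.62 ± 0.22 and -1.68 ± 0.22 at day 6. The other probe set of Sall4 followed it across the 15 arrays (r = 0.98) and had -0.27 (overlapping) and 0.25 (above ES cells) at day 4.

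Klf5 held an intermediate place and kept about as large a share in CDL at day 4 as Utf1, behind Sall4. Its ES arrays read 2109, 1878 and 2216, its RDL day 4 arrays 309, 526 and 382, and its CDL day 4 arrays 1206, 1165 and 655. Here replicate 1 of CDL was not set apart, since replicate 2 read almost the same. At day 6 all arrays lay between 46.2 and 78.9 on this probe set, with overlap of the media. Klf5 thus kept 19.6% of the ES mean in RDL and 48.8% in CDL at day 4 (44.0% without replicate 1), and 3.05% and 2.89% at day 6. Of its other probe sets, one followed it less closely (r = 0.85, -1.53 for RDL against ES at day 4). At day 6 this set read 13.5 to 16.7 in RDL and 20.3 to 24.8 in CDL, without overlap (0.35), or 14.6% and 21.8% of its ES mean. The probe sets of Klf5 thus disagree at day 6. The third was dim on every array, between 6.51 and 8.17 units, and carried no information.

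Dppa5a stayed well above the dim end of the array to day 6. It read 12579, 12662 and 12478 in ES cells and 2012, 2008 and 1868 in RDL at day 4. The CDL day 4 arrays read 7605, 2288 and 2267, so that replicates 2 and 3 lay close above RDL while replicate 1 lay between them and ES cells. At day 6 RDL gave 566, 268 and 364 and CDL 380, 835 and 701, with overlap. The means were 15.6% of ES in RDL and 32.2% in CDL at day 4 (18.1% without replicate 1), and 3.18% and 5.08% at day 6. Its probe set may also take up RNA of near-identical copies of the gene, and the files do not separate these.

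Dppa2 and Dppa4 lie side by side on chromosome 16 yet kept different parts of their ES signal. Dppa2 read 2040, 2012 and 1954 in ES cells, then 37.1, 31.8 and 35.5 in RDL and 482, 115 and 70.6 in CDL at day 4. At day 6 it was at 9.68 to 15.3 in RDL and 6.99 to 17.0 in CDL, around the constant of 12.6. Dppa2 was thus the member with the lowest share of ES signal in RDL at day 4 (1.74%), and all its CDL arrays lay above all its RDL arrays at that day. Its other probe set, with r = 0.99 across the arrays, had -5.05 for RDL against ES at day 4, beside -5.41 ± 0.42 in the brighter one.

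Dppa4 read 1643, 1798 and 1715 in ES cells, 162, 149 and 142 in RDL and 453, 168 and 120 in CDL at day 4. At day 6 it read 94.1 to 133 in RDL and 102 to 116 in CDL. How much of this level is background of its only probe set was not tested. The day 4 groups of the media overlapped, as did those at day 6. Dppa4 kept 8.81% of ES signal in RDL at day 4 and 6.48% at day 6, a difference between the days of -0.41 ± 0.30 (SE) in RDL, beside -0.91 ± 0.42 for Dppa2 and -2.45 ± 0.30 for Pou5f1. The RDL arrays of the days did not overlap in any of these. In CDL Dppa4 kept 14.4% at day 4 (8.39% without replicate 1) and 6.23% at day 6, a difference of -0.90 ± 0.30 without overlap, or -0.37 ± 0.15 without replicate 1.

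Utf1 gave a narrow range of signal from ES cells to day 6. Its arrays read 187, 177 and 193 in ES cells, 71.5, 68.1 and 69.5 in RDL and 106, 82.1 and 79.5 in CDL at day 4. The day 6 arrays read 66.4, 70.8 and 68.8 in RDL and 94.5, 71.3 and 84.0 in CDL. Against ES cells RDL stood at -1.27 ± 0.11 at day 4, with 37.6% of the ES mean, and at 37.0% at day 6, a difference between the days of -0.02 ± 0.11. The day 4 and day 6 arrays overlapped in both media. A second probe set was dimmer, at 36.4 to 43.0 in ES cells and 19.1 to 25.4 elsewhere, and the third lay between 10.5 and 16.1 on all arrays with no separation. How much of the level in sorted cells is background of the probe set was not tested.

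**Figure D1:**
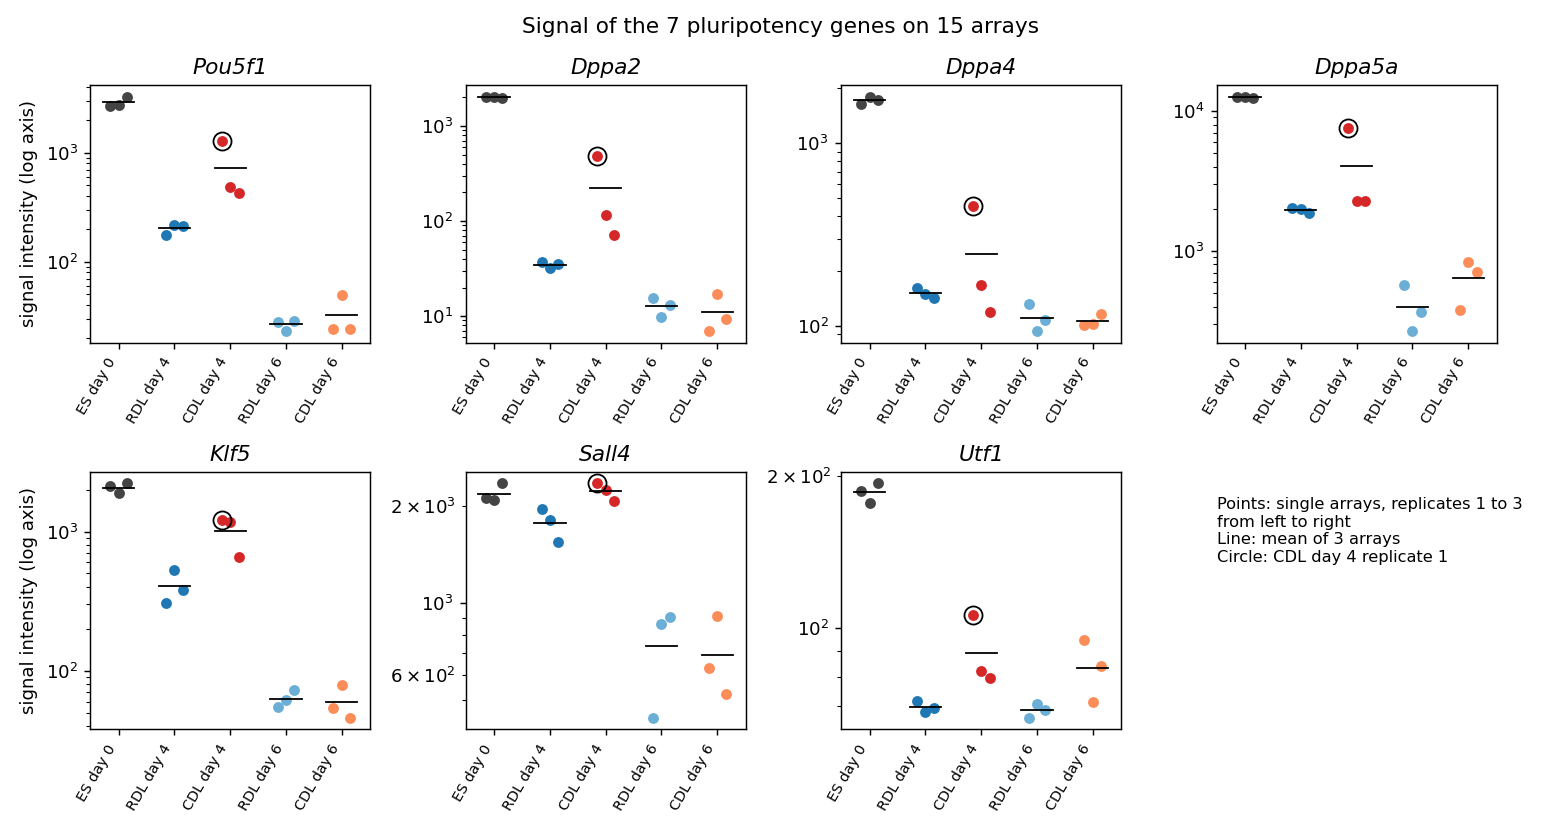
Signal intensity (log axis) of the 7 genes on each of 15 arrays, by group, with points for single arrays, lines for the mean of 3 and a circle around CDL day 4 replicate 1. Sall4 stays near its ES level of 2083 to 2352 at day 4, while the RDL day 4 arrays of Dppa2 lie between 31.8 and 37.1.

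Against ES cells the arrays of all 7 genes were lower without overlap in RDL at day 4 (35.8% of all genes tested were lower in that way and 34% higher) and at day 6 (36.4% and 30.8%). In CDL 6 of 7 were lower without overlap at day 4 (36.9% lower and 33.5% higher over all genes), with Sall4 the exception, and all 7 at day 6 (36.8% and 31.2%). The choice of members rested on these values, so nothing is read from those counts. At day 4 the median difference over the members was -2.67 for RDL and -1.88 for CDL, and at day 6 it was -4.79 and -4.35, where the median over all genes lay between -0.04 and -0.01. Without CDL day 4 replicate 1 the CDL day 4 median was -2.46.

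Most of the other pluripotency genes fell against ES cells. Of 24 that were tested, 23 fell and 1 rose in RDL against ES cells at day 4 (limma, Benjamini-Hochberg adjusted p under 0.05, which 29.5% of all genes passed as lower and 27.6% as higher). In CDL at day 4 they were 22 lower and 1 higher (29.6% and 26.6%), with the same counts without replicate 1. At day 6 they were 23 lower and 1 higher in RDL (33.3% and 28.3%), and 23 lower and 0 higher in CDL (33.3% and 27.8%). The naive factors Nanog (-7.00 ± 0.83, adjusted p = 2.29e-06 in limma), Tfcp2l1 (-6.83 ± 0.79), Zfp42 (-6.01 ± 0.74) and Fbxo15 (-5.94 ± 0.60) fell most in RDL. Over the 24 genes the median share of ES signal was 4.25% in RDL at day 4, beside 15.6% for the 7 genes, and 4.10% beside 18.1% in CDL without replicate 1. At day 6 the medians were 3.03% and 3.18% in RDL, and 2.22% and 5.08% in CDL. The 7 were picked for this property, so the contrast describes them and is not a test.

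Some genes outside the 7 also stayed. Lin28a, whose protein holds back the let-7 family of microRNAs, rose in RDL at day 4 (1.88 ± 0.34, adjusted p = 0.000193 in limma). Trim28, a corepressor of retroelements, kept 74.4% of its ES signal, and Jarid2, a Polycomb partner, 35.3%. The growth factor Fgf4 kept 6.01%, close to the share of Pou5f1, and Klf4 kept 16.9%, whereas Nanog kept 0.581% and Esrrb 0.813%. On the RDL day 4 arrays, where Nanog read 36.6, 31.6 and 40.0 and Esrrb 8.83, 8.38 and 9.63, Pou5f1 read 176 to 215, Klf5 309 to 526 and Dppa5a 1868 to 2012.

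**Figure D2:**
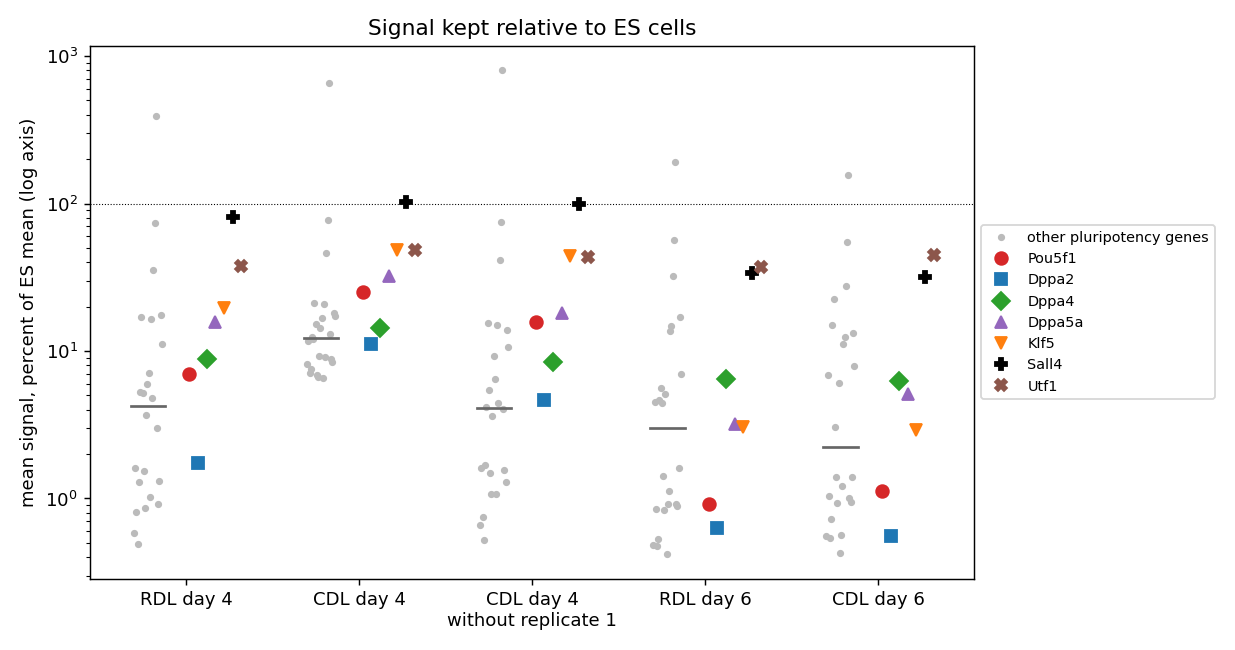
Mean signal as a percent of the ES mean (log axis) for the 7 genes (coloured symbols) and 24 other pluripotency genes (grey points, with their median as a line), in each differentiated group and in CDL day 4 without replicate 1. Among the 7, Sall4 is highest and Dppa2 lowest at day 4, and the grey medians lie at 4.25% in RDL and 12.3% in CDL, the latter at 4.10% without replicate 1.

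CDL day 4 replicate 1 needs its own account, since it sets the group mean of several members. Its excess over its group mates was expressed as a percent of the excess of ES cells over those mates. Over 41 genes outside the 7, above 500 units on every ES array and below 50 on the other 11 sorted arrays, this had a median of 18.3% (interquartile range 16.5% to 22.1%, lowest 10.8%, highest 36.6%). The medians of the 9 arrays in the other sorted groups lay between -0.174% and 0.238%, where the choice of genes keeps them near 0. For Dppa4 the excess was 19.6%, for Dppa2 20.4%, for Utf1 23.9% and for Klf5 25.6%, all inside the range of the 41 genes. Pou5f1 had 33.5%, near the top of that range, and Dppa5a 51.8%, above it. The Klf5 value rests on the mean of unlike mates, since replicate 1 read 1206, replicate 2 1165 and replicate 3 655. Sall4 has no such value, because its mates were already at the ES level. The part of ES-like cells in these values was not tested.

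**Figure D3:**
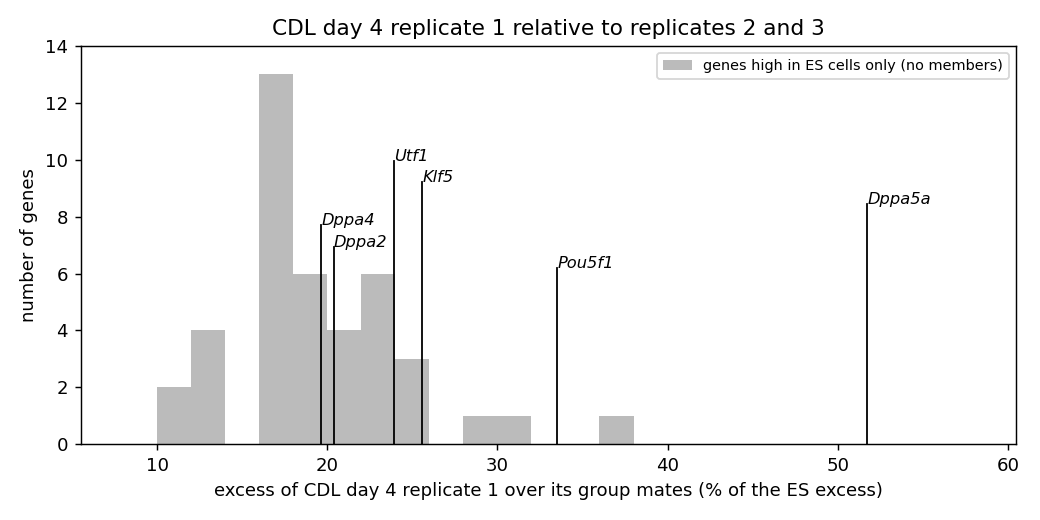
Excess of CDL day 4 replicate 1 over replicates 2 and 3, as a percent of the excess of ES cells (x axis), for 41 genes high in ES cells only (grey histogram, number of genes on the y axis) and for 6 of the 7 members (lines, whose heights only separate the labels). The grey values centre on 18.3%, and Dppa5a at 51.8% lies beyond their highest value of 36.6%.

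CHIR in place of Rspo3 went with higher signal of most members at day 4, where line, day and sort were the same. All 3 CDL arrays lay above all 3 RDL arrays for 6 of 7 genes, a separation that 12.1% of all genes showed in that direction and 12.4% in the other, and Dppa4 overlapped. The differences were 1.88 ± 0.42 (SE, n = 3 per group) for Dppa2, 1.62 ± 0.30 for Pou5f1, 1.27 ± 0.23 for Klf5 and 0.79 ± 0.38 for Dppa5a. Dppa4 had 0.45 ± 0.30, Sall4 0.33 ± 0.22 and Utf1 0.30 ± 0.11. Without CDL day 4 replicate 1 Klf5 stood at 1.12 ± 0.24, Pou5f1 at 1.13 ± 0.20 and Dppa2 at 1.12 ± 0.18, with no overlap of the remaining arrays. Dppa5a then had 0.21 ± 0.27 and Dppa4 -0.08 ± 0.15, Sall4 0.29 ± 0.25 and Utf1 0.18 ± 0.11. Leaving out that array thus moved Dppa2, Dppa5a, Dppa4 and Pou5f1 more than Klf5, Utf1 and Sall4. Among other probe sets, that of Dppa2 had 1.63 and that of Sall4 0.52 between the media, without overlap, whereas the second set of Klf5 had 0.24 with overlap and that of Utf1 0.05 with overlap. In the remaining CDL arrays, of the 8 ES markers, Nanog read 40.9 and 41.4 against 31.6 to 40.0 in RDL and Nr0b1 11.7 and 12.3 against 9.20 to 10.2, both without overlap, and the other 6 overlapped.

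The 24 other pluripotency genes had a median difference between the media at day 4 of 0.80 with all arrays, like that of the 7 members (0.79). Without CDL day 4 replicate 1 it was 0.00012, beside 0.29 for the members. On the remaining arrays CDL lay above RDL without overlap for 7 of the 24 and 6 of the 7 members, and below for 0 of either, where 16.5% of all genes were above and 19.7% below. Fbxo15, at 20.7 and 33.7 against 15.4 to 16.4, and L1td1, at 127 and 154 against 92.7 to 114, were named after their values were seen. In limma, of the 24 genes 1 was higher in CDL at day 4 and none was lower (2.89% of all genes passed as higher and 1.52% as lower). That gene was Fgf4 (1.03 ± 0.25, adjusted p = 0.0286 in limma, and 0.58 without CDL day 4 replicate 1 with adjusted p = 0.0129). With any one of the 3 RDL day 4 arrays left out 0 of the 24 genes passed, and without CDL day 4 replicate 3 the count was 3. Nanog had 1.73 ± 0.83 (adjusted p = 0.348) with all arrays and 0.15 without replicate 1, and Zfp42, Esrrb and Tfcp2l1 had 0.33, -0.05 and 0.06 without it. Klf4, a relative of Klf5, had 0.24 ± 0.25 (adjusted p = 0.759). Of 14 Klf genes besides Klf5, 2 were higher in CDL, Klf15 (0.80 ± 0.11, adjusted p = 0.000351) and Klf9 (0.81 ± 0.20, adjusted p = 0.0252), and Klf9 had adjusted p = 0.0580 without replicate 1.

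Epithelial and germ cell genes were examined because Klf5 is also made in epithelia and Pou5f1 in germ cells. Of 14 epithelial genes 4 were higher in CDL at day 4 and none was lower, also without replicate 1. With all arrays 2.89% of all genes passed as higher and 1.52% as lower. They were E-cadherin Cdh1 (1.43 ± 0.22, adjusted p = 0.000975 in limma), the tight junction gene Cldn4 (1.23 ± 0.17), Epcam (0.76 ± 0.14) and the splicing factor Esrp1 (0.66 ± 0.11). Of 10 germ cell genes 2 were higher and none lower, the meiotic gene Sycp3 (0.98 ± 0.13, adjusted p = 0.000281) and the helicase Ddx4 (0.83 ± 0.13, adjusted p = 0.00120). Over 5 epithelial markers (Epcam, Cdh1, Krt8, Krt18 and Cldn6) CDL arrays summed to 5886 to 7101 and RDL arrays to 4266 to 5779. Over 5 germ cell markers with a probe set the sums were 499, 165 and 129 in CDL replicates 1 to 3 and 107 to 126 in RDL. The part of either cell type in the signal of the 7 genes was not tested.

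At day 6 the media were close. The arrays of 6 of 7 genes overlapped, and those of Utf1 were higher in CDL without overlap (0.23 ± 0.11 SE), which 9.6% of all genes were (10.3% lower). Of the 24 other pluripotency genes 1 was higher, Klf4 (1.92 ± 0.25, adjusted p = 0.000122 in limma), and 0 were lower, where 3.67% and 3.95% of all genes passed. The other differences lay between -0.11 (Dppa2) and 0.65 (Dppa5a, SE 0.38). CDL day 6 replicate 2 gave the highest signal of its group for Pou5f1 (49.7), Dppa2 (17.0), Dppa5a (835), Klf5 (78.9) and Sall4 (916), but not for Dppa4 or Utf1. On the 41 ES genes that array had 0.238% of the ES excess, but the choice of those genes keeps this value near 0.

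Between day 4 and day 6, where line and reporter also changed, 6 of 7 genes were lower without overlap in RDL (24.1% of all genes were lower and 20.1% higher) and 6 of 7 in CDL (26.1% and 21.5%), with Utf1 the exception in both. On the probe sets used, the largest in RDL were Pou5f1 (-2.45 ± 0.30), Klf5 (-2.44 ± 0.23) and Dppa5a (-2.32 ± 0.38). In CDL they were Pou5f1 (-3.91 ± 0.30, or -3.42 without CDL day 4 replicate 1), Klf5 (-3.79 ± 0.23) and Dppa2 (-2.89 ± 0.42, or -2.14 without it). The second probe set of Klf5 had only -0.54 in RDL and -0.43 in CDL, also without overlap. Of the 24 other pluripotency genes 5 fell and 1 rose between the days in RDL (17.1% and 13.8% of all genes passed in limma), and 11 fell and 0 rose in CDL (22% and 17.4%). Without CDL day 4 replicate 1 the counts were 7 lower and 2 higher in RDL, and 9 lower and 4 higher in CDL. The CDL count of 11 was 17 without CDL day 4 replicate 3 and 6 without CDL day 6 replicate 1 or replicate 3.

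**Figure D4:**
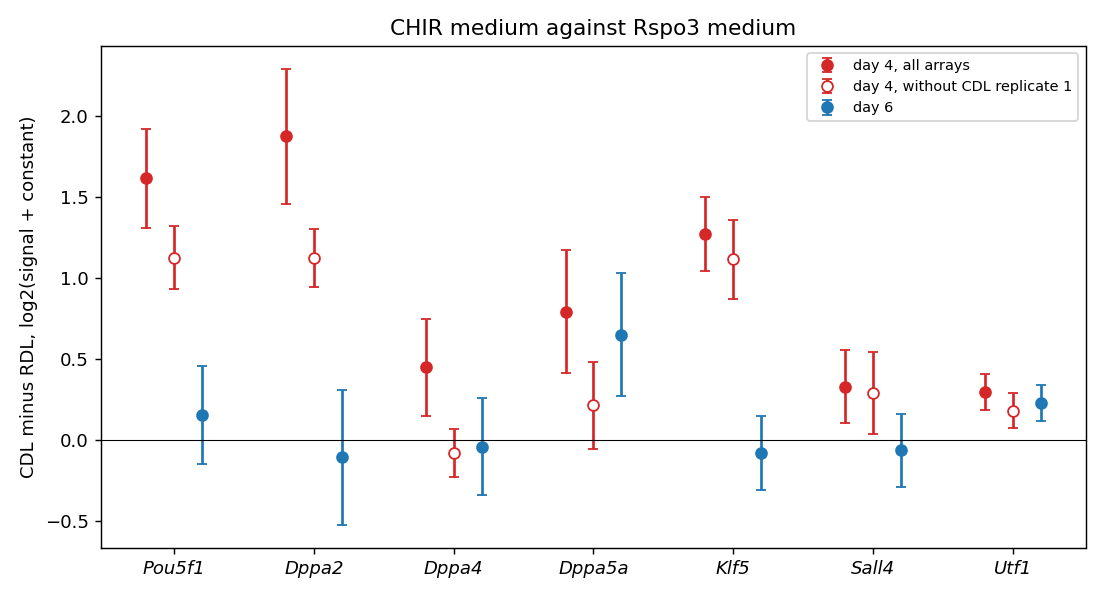
Difference between CDL and RDL medium (y axis, log2 of signal plus constant, with SE) for each of the 7 genes, at day 4 with all arrays (filled red), at day 4 without CDL replicate 1 (open red) and at day 6 (blue). Pou5f1, Dppa2 and Klf5 stay at 1.12 to 1.13 at day 4 without that replicate, and Dppa4 goes from 0.45 to -0.08.

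The tested neighbours of the members did not share one pattern. Beyond Dppa2 the next tested gene is Morc1, a germline chromatin ATPase, which fell to 0.349% of its ES signal in RDL at day 4 (-6.83 ± 0.79, adjusted p = 1.85e-06 in limma). On the other side of Dppa4 lies Nectin3, an adhesion gene, which rose (0.82 ± 0.08, adjusted p = 3.92e-07). Along this stretch the share kept in RDL at day 4 was thus 8.81% for Dppa4, 1.74% for Dppa2 and 0.349% for Morc1. Ooep, an oocyte gene next to Dppa5a, fell to 0.757% (-6.49 ± 0.69, adjusted p = 6.41e-07), where Dppa5a kept 15.6%. Between the media at day 4 Morc1 had 1.54 ± 0.79 (adjusted p = 0.398) and 0.00 without CDL day 4 replicate 1. Tcf19, next to Pou5f1, rose in RDL against ES cells (0.54 ± 0.14, adjusted p = 0.00274), and Zfp64, next to Sall4, fell (-0.34 ± 0.11, adjusted p = 0.0200). H2-D1, on the other side of Pou5f1, was higher in CDL than in RDL at day 4 (0.67 ± 0.17, adjusted p = 0.0322 in limma). Without CDL day 4 replicate 1 its adjusted p was 0.0815. At day 6 it was higher in CDL too (0.92 ± 0.17, adjusted p = 0.00253). No other tested neighbour was called between the media.

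**Figure D5:**
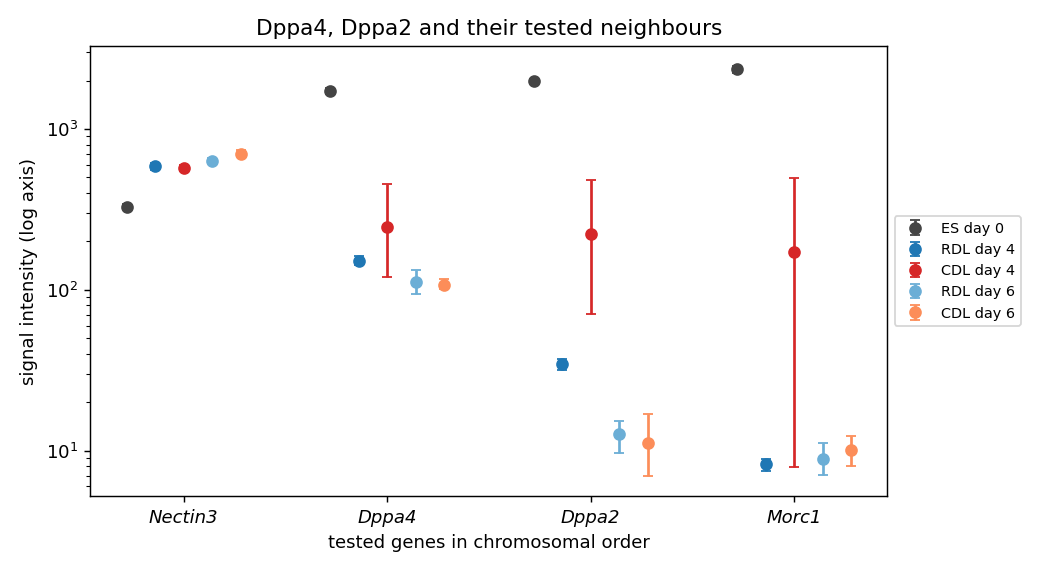
Signal intensity (log axis) of Dppa4, Dppa2 and the tested genes on either side, in chromosomal order, as group means with bars from the lowest to the highest of 3 arrays. In RDL at day 4 the genes from Dppa4 to Morc1 hold 8.81%, 1.74% and 0.349% of their ES means, and the long CDL day 4 bars reach up to replicate 1. Morc1 reads 7.46 to 8.83 units in RDL at day 4, at the dim end of the array.

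Relatives of the members were measured too. Of 5 other POU genes tested none rose in either medium at day 4 against ES cells, 3 fell in RDL and 2 in CDL, and none was called between media. Over all genes 29.5% fell and 27.6% rose in RDL, and 29.6% and 26.6% in CDL. Between the media few of all genes were called, 2.89% as higher and 1.52% as lower at day 4, and 3.67% and 3.95% at day 6. Among 3 other Sall genes Sall2 rose against ES cells at day 4 in RDL (1.87 ± 0.15, adjusted p = 3.88e-08 in limma) and in CDL (1.63), and the remaining 2 were not called. At day 6 Sall1 (-1.35 ± 0.21) and Sall3 (-1.40 ± 0.09) fell in RDL against ES cells while Sall2 was still higher (1.93 ± 0.15). Of 13 NuRD subunits, partners of Sall4, 2 rose and 3 fell at day 4 in each medium, with a median of 0.15 in RDL and 0.19 in CDL. As shares these counts lie below those of all genes. None was called between the media at day 4 or day 6, where few of all genes were, so nothing is read from that.

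Across all 15 arrays the genes with the pattern most like Pou5f1 were Fmr1nb, Tcea3, Fgf4, Dennd2c and Cdkl2, with Pearson's r between 0.992 and 0.994 on the log2 scale. The likeness includes the high array of CDL at day 4, which these points share. The nearest gene to Dppa2 was Pla2g1b (r = 0.997), to Dppa4 Capsl (0.996), to Klf5 Tnip1 (0.992), to Sall4 Ppif (0.988), to Utf1 Ccdc141 (0.987) and to Dppa5a Kpna6 (0.986). Among the members, Pou5f1 ran closest with Dppa5a and Klf5 (both 0.98), and Dppa2 with Dppa4 (0.97). Sall4 and Utf1 were furthest apart (0.47). Within groups, after taking out the group means, the 3 Dppa genes and Pou5f1 correlated at 0.81 to 0.95, with CDL day 4 replicate 1 among the points, and Sall4 with Dppa4 at -0.07.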

How the data were processed

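The deposited values are linear signal intensities, 1 for each probe set, and the authors made them with MAS5, per the submitters' processing notes. Version, settings and genome build are not given in the sources used here. RNA was labelled in 2 cycles, per the labels' protocols, and 1 array stands for each of 15 samples.

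Of 45101 probe sets 64 controls were left out. A constant of 12.6, the median over arrays of the lower quartile, was added before log2. Probe sets above the array median in at least 3 arrays were kept, and each gene was read from the brightest on average of the probe sets that name it alone. This left 12409 of 18193 genes. Group means over all arrays were fitted with limma 3.58.1 in R 4.3.3 (eBayes with trend, Benjamini-Hochberg). Figures used matplotlib 3.10.9.

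The members and lists were chosen with earlier results of these data known. Genes outside the 7 were named by rule: ES markers, up to 4 list members with the largest called differences, tested neighbours and the genes most correlated with each member. Trim28, Jarid2, Lin28a, Fbxo15 and L1td1 were named after their values were seen. Of 26 other pluripotency genes listed, 24 were tested.

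Same-numbered replicates were compared by the correlation of their residuals. Only RDL day 6 and RDL day 4 had all 3 above 0.1 (0.22 to 0.28), so same numbers may be pairs there. The differences, SEs and counts above come from the fit without pairs, and the replicate block was run as an alternative only. A limma self-test on simulated arrays recovered 98% of 100 genes changed by 1 on the log2 scale among 12409 genes in RDL day 4 against ES cells.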

Additional observations from a re-analysis of the deposited data

Results flagged for a closer look

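For some genes named above, the difference between the media was not the same at the days, by the interaction of medium and day in limma (CDL minus RDL at day 6, less the same at day 4). Day also stands for line, strain and sort reporter here. Of the 5 genes picked for a pattern like that of Pou5f1, Fmr1nb had -0.85, Tcea3 -0.88, Dennd2c -0.92, Cdkl2 -0.55 and Fgf4 -1.03. Since Pou5f1 itself was set apart between the media at day 4 and not at day 6, these values follow from the choice and are no test, and Dennd2c and Cdkl2 were at 8.17 to 15.8 units at day 6. The difference was smaller at day 6 for Cdh1 (-1.41, adjusted p = 0.0127), Sycp3 (-0.95, adjusted p = 0.00571) and Ddx4 (-0.999, adjusted p = 0.00410). With replicate 1 of CDL day 4 left out, Cdh1 had -1.21, Sycp3 -0.75 and Ddx4 -0.92, each with an adjusted p under 0.05. These genes were named for their higher signal in CDL at day 4, and this choice favours a smaller difference at day 6. At day 6 Sycp3 read only 6.63 to 7.17 units in RDL and 7.23 to 7.51 in CDL. Ddx4 read 12.4 to 15.4 in RDL and 9.04 to 12.2 in CDL. At such dim levels a difference between the media could hardly show. The adjusted p values thus describe chosen genes and are no test of a change between the days.

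Klf4 had an interaction of 1.68 (adjusted p = 0.00962), with 0.24 at day 4 and 1.92 at day 6, so that it was higher in CDL at day 6 (adjusted p = 0.000122). Sall1 had 1.20 (adjusted p = 0.0268, and 0.0552 without CDL day 4 replicate 1). Pax3, the gene behind the reporter used for sorting at day 6, had 1.61 (adjusted p = 0.000158), lower in CDL at day 4 (-0.85) and higher at day 6 (0.76).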

How the results depend on the processing

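Over 23 alternatives, no member difference whose arrays did not overlap changed sign. Leaving out an array or changing the constant could not turn such a sign, so little is read from this. Some differences with overlapping arrays did change sign. Between the media, Dppa4 at day 4 went from 0.45 to -0.08 without CDL day 4 replicate 1. Pou5f1 at day 6 went from 0.16 to -0.10 without CDL day 6 replicate 2. Over all 56 differences 54 of 1288 recomputed values moved by more than the spread between replicates. The median over the members moved for RDL day 6 against ES cells (-4.79) to -5.02 with a constant of 1, -4.23 with a constant of 50, -4.72 with median centring and -3.81 with the mean of all probe sets, and for CDL day 6 against ES cells to -3.86 with that mean. CDL day 6 against CDL day 4 went from -2.47 to -1.85 with a constant of 50 and to -1.73 with the mean of all probe sets, and RDL day 6 against RDL day 4 from -1.31 to -0.99 with that mean. The medium difference at day 6 turned from -0.04 to 0.095 with the mean of all probe sets, which brings in the dim sets of Klf5 and Utf1. Counts of other pluripotency genes between media were 0 instead of 1 at day 4 with that mean, and 2 instead of 1 at day 6 with quantile normalization or median centring. The cause was not tested for the other settings. That median also turned positive without any one RDL day 6 array (0.078, 0.083 and 0.12) and without CDL day 6 replicate 1 (0.021) or 3 (0.11).

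Leaving out 1 array at a time, the member medians against ES cells lay between -2.69 and -2.64 (RDL day 4), -2.46 and -1.59 (CDL day 4), -4.87 and -4.71 (RDL day 6) and -4.57 and -4.02 (CDL day 6). Between media they lay between 0.29 and 1.08 at day 4 and -0.10 and 0.12 at day 6, and between days -1.49 and -0.99 in RDL and -2.76 and -1.89 in CDL. The counts of other pluripotency genes lay between 23 and 24 against ES cells (RDL day 4, CDL day 4 and RDL day 6, and 23 in each case for CDL day 6), 0 and 3 between media at day 4, 1 and 2 at day 6, and 4 and 9 (RDL) and 6 and 17 (CDL) between days. With the replicate block, the median for RDL day 6 against RDL day 4 was -1.31 and the block moved no count by over 1.5 times. The number of arrays limits the precision.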
